A study of Homo sapiens with 12 samples.

Results

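A set of 11 genes stood apart in cells given ΔIDR1b ARID1A and differed by less than the limit below in cells given WT ARID1A. Of these, 10 were higher with ΔIDR1b (ADM2, ZBTB9, DOLK, SLITRK3, GNB3, ZFHX2, CENPBD1P, ZNF629, FAM86EP and USP51) and 1 was lower (ENSG00000287809, a gene with an Ensembl identifier and no symbol). They were chosen from 13491 genes with a mean of at least 3 CPM (counts of a gene per 1000000 counts of its library) over the 12 libraries, out of 60645 gene names in all. A gene was taken when log2 of its group mean CPM plus 0.5 differed between ΔIDR1b and no ARID1A by at least 1.5, in 1 direction, under the empty vector and EWS-FLI1 alike, and when WT and no ARID1A differed by less than 0.3 with both. ARID1A, FLI1 and EWSR1, which the plasmids carry, were left out. The contrasts of ΔIDR1b and of WT with no ARID1A therefore fixed the members, and their values are given below as a description with no test.

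The cells were HEK-293T, an established human embryonic kidney line, and all 12 libraries came from the ARID1A knockout line that the study calls 12KO. No group thus had its own intact ARID1A. The knockout cells carried an empty overexpression vector (no ARID1A), overexpressed WT ARID1A or overexpressed ARID1A lacking IDR1b (ΔIDR1b), and each of these 3 states was combined with EWS-FLI1 or with an empty vector, which made 6 groups of 2 libraries. PolyA RNA was sequenced to ask what IDR1b does in transcriptional regulation by EWS-FLI1. The labels' treatment text names transfection with 2 µg of the EWS-FLI1 plasmid, then 48 h of growth, for every sample, and so also for the empty-vector groups, whose 6 libraries held 4 counts of FLI1 in all. Each group has a repeat 1 and a repeat 2, with no statement on whether these are separate cultures, so p-values measure the spread between these samples, which may be technical. The labels also do not say whether each ARID1A state was a line of its own, in which case differences between lines cannot be told apart from the effect of the ARID1A form. In bulk RNA, a rise in every cell and a larger rise in a part of the cells cannot be told apart either.

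ARID1A belongs to the canonical BAF form of SWI/SNF, a complex that uses ATP to slide and evict nucleosomes and so opens chromatin at promoters and enhancers. IDR1b is a stretch within one of its intrinsically disordered regions, protein segments without a fixed fold that can gather proteins into local concentrations. EWS-FLI1 is the fusion oncoprotein of Ewing sarcoma, in which the DNA-binding ETS domain of FLI1 recognises GGAA sequences and the EWS part recruits the BAF complex.

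The plasmids left their mark in the libraries. ARID1A stood at a mean of 152.3 CPM without ARID1A, 1944 with WT and 2958 with ΔIDR1b (empty vector, n = 2 each), and at 157.9, 1990 and 2776 CPM with EWS-FLI1. ΔIDR1b transcripts were thus 1.52 times as abundant as WT transcripts under the empty vector and 1.39 times under EWS-FLI1, and whether that excess bears on the 11 genes was not tested. FLI1, nearly without counts under the empty vector, had a mean of 1738, 3434 and 2014 CPM in the EWS-FLI1 groups with no ARID1A, WT and ΔIDR1b. EWSR1, part of which is in the fusion, had group means of 412.9 to 517.3 CPM in the empty-vector groups and 2019 to 3460 CPM in the others. Library totals ran from 11702251 to 14445379 counts, so a count of 0 allowed at most 0.208 to 0.256 CPM (3 counts), which covers counting error only. Of 8 markers of the HEK-293 line, 7 were present in every library, and NEFM had 2 counts in all.

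The promoters of the 3 genes with the largest mean difference on the higher side are shown because FLI1 binds GGAA. Each run is 300 bases from RefSeq (GRCh38.p14), 250 before the start of transcription and 50 after it, on the gene's strand. Capitals mark GGAA and its reverse complement TTCC, so that both strands are covered. The ADM2 window is chr22:50481293-50481592 (plus strand), the ZBTB9 window chr6:33454326-33454625 (plus strand) and the DOLK window chr9:128947554-128947853 (minus strand).
ADM2: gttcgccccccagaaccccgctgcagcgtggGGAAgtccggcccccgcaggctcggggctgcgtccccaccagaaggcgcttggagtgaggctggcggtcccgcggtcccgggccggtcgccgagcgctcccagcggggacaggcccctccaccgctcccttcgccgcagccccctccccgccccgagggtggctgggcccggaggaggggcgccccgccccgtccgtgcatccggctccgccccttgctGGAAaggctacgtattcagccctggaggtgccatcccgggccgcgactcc
ZBTB9: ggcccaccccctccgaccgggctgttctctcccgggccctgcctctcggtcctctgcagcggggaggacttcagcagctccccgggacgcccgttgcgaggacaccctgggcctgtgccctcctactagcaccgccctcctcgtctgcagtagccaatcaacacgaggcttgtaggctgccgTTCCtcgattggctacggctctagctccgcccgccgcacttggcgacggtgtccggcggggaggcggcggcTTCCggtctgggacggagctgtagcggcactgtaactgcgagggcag
DOLK: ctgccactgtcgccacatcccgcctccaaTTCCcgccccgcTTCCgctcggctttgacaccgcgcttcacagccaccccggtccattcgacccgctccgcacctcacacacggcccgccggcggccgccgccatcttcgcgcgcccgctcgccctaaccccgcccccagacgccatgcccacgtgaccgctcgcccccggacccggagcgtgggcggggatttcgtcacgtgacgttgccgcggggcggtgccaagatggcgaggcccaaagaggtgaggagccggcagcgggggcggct
Each of these windows held 2 matches to GGAA. RefSeq gave promoters for 6 of the 11 genes (also SLITRK3, ZFHX2 and ZNF629), and all 6 held GGAA on at least 1 strand, as did 94.9% of the 10221 promoters of genes in reach of the rule. The tandem form GGAAGGAA was in 0 of 6, against 3.17% of all. A GC box (GGGCGG, both strands) was in 5 of 6 against 72.1%, a CCAAT box (CCAAT, both strands) in 3 of 6 against 36.9%, and the E-box CACGTG in 1 of 6, that of DOLK, against 10.3%. TATAAA, the AP-1 motif TGAGTCA and the cyclic AMP element TGACGTCA were in 0 of 6, against 5.08%, 2.60% and 3.39%. The promoters thus shared no motif among those searched beyond what most promoters carry, and a match is a description of letters, not a site.

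Most genes that ΔIDR1b moved were moved the same way by WT. With ΔIDR1b, 114 of the 13491 genes were higher by the limit under both vectors (0.845%), and 113 of them remained after ARID1A was set aside. WT was at least 0.3 higher under both vectors at 80 of the 113, at least 0.3 lower at 1, and inside the limit at 10, the members, which is 8.85% of them, with 22 between these cases. On the lower side 181 genes passed (1.34%), WT was lower as well at 170, and 1 gene, 0.552%, was a member. At the 11 members WT differed by less than 0.3 under both vectors, as the rule required. Over all 13491 genes WT was inside that limit under both vectors at 6929 (51.4%). The ΔIDR1b and WT differences subtract the same libraries without ARID1A, so spread in those libraries shifts both the same way. ΔIDR1b also moved the scale a little: the median over all 13491 genes was 0.14 above no ARID1A with either vector, and that of WT was -0.0015 and 0.0054. Counted from that median, the 10 higher genes lay 1.36 to 2.40 above it under the empty vector and 1.38 to 1.98 under EWS-FLI1, 7 of them at 1.5 or more in each.

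**Figure D1:**
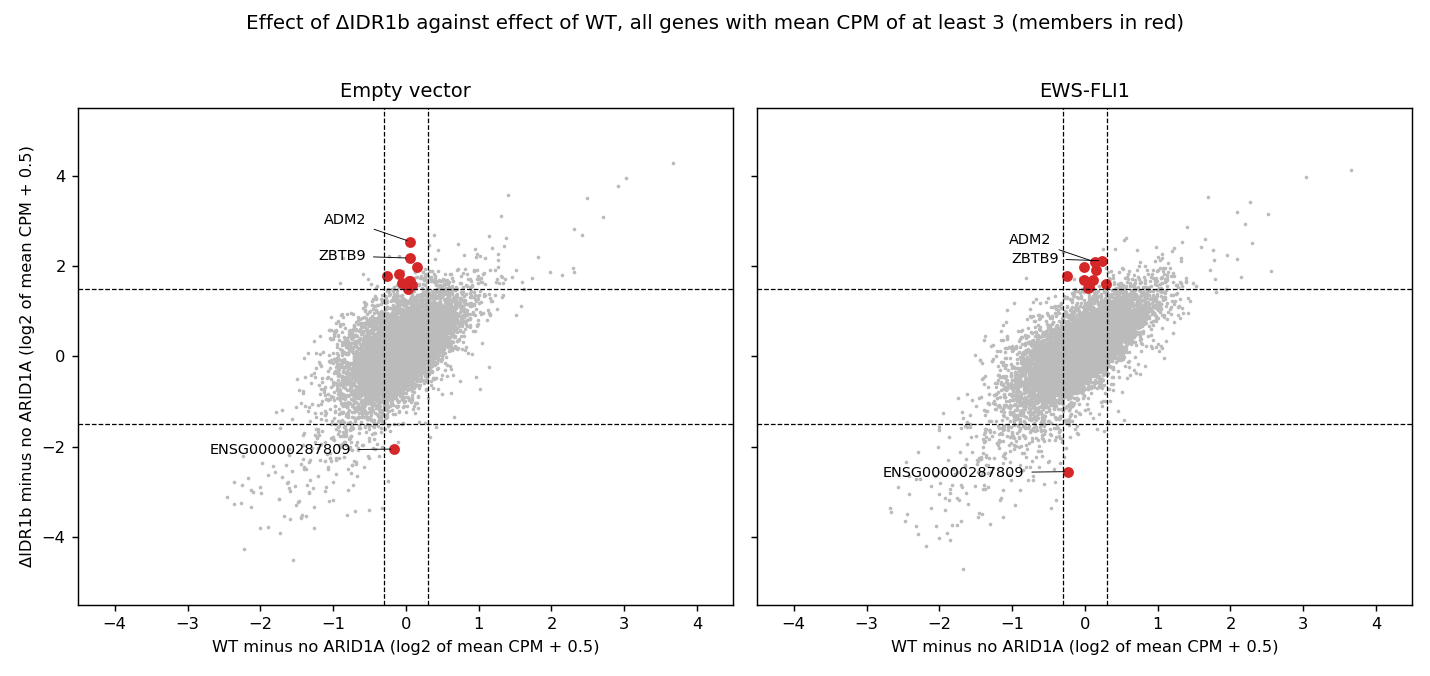
Each point is 1 of 13491 genes. The x axis gives WT minus no ARID1A and the y axis ΔIDR1b minus no ARID1A, both as differences of log2 (group mean CPM + 0.5), with the empty vector (left) and EWS-FLI1 (right), and dashed lines mark the limits 0.3 and 1.5. The 11 members (red) sit in the narrow middle band, 10 above it and 1 below, while most genes past the dashed horizontal lines lie off to the side, and 1 gene lies beyond the axes in at least 1 panel.

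The largest difference on the higher side was that of ADM2, the gene of adrenomedullin 2 (intermedin), a secreted peptide of the calcitonin family that acts on receptors built from CALCRL and RAMP proteins. The gene lies at chr22:50481543-50486440 (plus strand), is protein-coding and has 2 exons. It shares 3.05% of its exonic bases with SBF1, a gene at a mean of 411.7 CPM that was higher with ΔIDR1b by 0.61 and 0.46 on the log2 CPM scale. The part of shared reads in the ADM2 level was not tested. The CPM of ADM2 was 1.37 and 1.03 (repeats 1 and 2) without ARID1A, 0.969 and 1.58 with WT and 9.62 and 9.19 with ΔIDR1b under the empty vector. With EWS-FLI1 it was 0.926 and 2.48, 1.44 and 2.42, and 9.13 and 8.60. The 4 ΔIDR1b libraries were all high and close together, and the lowest of them was 3.47 times the highest of the 8 others. The ratio of ΔIDR1b to no ARID1A was 7.83 under the empty vector and 5.21 under EWS-FLI1. Counts behind the low groups were small, 33 for the 2 libraries without ARID1A and 36 for those with WT under the empty vector, against 245 with ΔIDR1b.

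ZBTB9 encodes a zinc finger protein with a BTB domain, the protein-protein contact module of a large class of transcriptional regulators. The gene is at chr6:33453970-33457544 (plus strand) with 3 exons. Without ARID1A its CPM was 2.46 and 3.01 under the empty vector, then 2.86 and 2.73 with EWS-FLI1. WT gave 3.18 and 2.51, and 2.81 and 3.96. ΔIDR1b gave 12.0 and 16.2, and 15 and 12.7. No ΔIDR1b library came near the others, and the group means were 5.17 times those without ARID1A under the empty vector and 4.94 times with EWS-FLI1.

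DOLK encodes dolichol kinase, which makes the dolichol phosphate on which the sugar chain of N-glycoproteins is built in the endoplasmic reticulum. The gene has a single exon (chr9:128945530-128947603, minus strand). CPM without ARID1A was 2.60 and 3.23 under the empty vector, against 3.37 and 3.85 under EWS-FLI1. In WT it was 3.95 and 2.65, and 4.4 and 3.45. In ΔIDR1b it was 13.7 and 12.4, and 11.9 and 13.6. ΔIDR1b was 4.48 and 3.54 times no ARID1A under the 2 vectors, and no ARID1A and WT overlapped under both.

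SLITRK3 is a neuronal transmembrane protein with leucine-rich repeats that organises inhibitory synapses, and GNB3 is a β subunit of heterotrimeric G proteins known from cone photoreceptors. SLITRK3 (chr3:165186720-165197109, minus strand, 4 exons) was at 2.82 and 3.01 CPM without ARID1A, 2.01 and 3.37 with WT and 13 and 10.2 with ΔIDR1b under the empty vector. With EWS-FLI1 the values were 4.29 and 4.44, 2.23 and 4.99, and 15.4 and 17.0. ΔIDR1b stood clear in both sets, by 3.99 times and 3.70 times no ARID1A. For GNB3 (chr12:6839954-6847393, plus strand, 10 exons) the empty-vector values were 2.96 and 2.79, 3.25 and 2.87, and 9.70 and 9.57 CPM. Those with EWS-FLI1 were 2.44 and 2.14, 1.08 and 3.45, and 11.9 and 9.18, a ΔIDR1b to no ARID1A ratio of 4.60 against 3.35 with the empty vector. GNB3 overlaps CDCA3, a cell cycle gene, over 16.0% of its exonic bases, and the counting used no strand, so that reads there cannot be assigned to one of them. CDCA3 itself was lower with ΔIDR1b, by -0.48 and -0.52 on the log2 CPM scale, and the part of shared reads in the GNB3 level was not tested. ADM2, ZBTB9, ZFHX2, FAM86EP and USP51 also shared exonic bases with other genes, from 3.05% (ADM2) to 8.14% (ZBTB9). THTPA, which ZFHX2 overlaps, was higher with ΔIDR1b by 0.49 and 0.56.

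Among the regulators of transcription, ZNF629 was by far the most abundant member, with 7895 counts over the 12 libraries. It encodes a C2H2 zinc finger protein (chr16:30778456-30787205, minus strand, 3 exons). Its CPM was 28.7 and 27.3 without ARID1A, 28.9 and 29.4 with WT and 92.1 and 88.4 with ΔIDR1b under the empty vector. With EWS-FLI1 it was 26.2 and 30.2, then 30.3 and 38.6, then 86.0 and 87.8. The lowest ΔIDR1b library was 2.23 times the highest other library, and the high counts make this the most precisely measured member, with a standard error (SE) of 0.13 on the log2 scale. WT was not quite level for it: both WT libraries lay above both libraries without ARID1A under each vector, and the edgeR estimate for WT with EWS-FLI1 was 0.33 (95% interval 0.06 to 0.59). ZFHX2, a homeodomain and zinc finger protein of the nervous system (chr14:23520857-23556192, minus strand, 13 exons), was at 4.62 and 5.07 CPM without ARID1A, 3.81 and 4.09 with WT and 16.8 and 18.8 with ΔIDR1b under the empty vector. With EWS-FLI1 it was 3.70 and 5.30, 3.24 and 5.65, and 13.8 and 17.8. Both WT libraries lay below those without ARID1A under the empty vector, by 0.27 on the log2 scale, just inside the limit.

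USP51 is a deubiquitinase that removes ubiquitin from histones, and CENPBD1P and FAM86EP are annotated by RefSeq as transcribed pseudogenes. USP51 (chrX:55484616-55489848, minus strand, 3 exons) had 1.95 and 1.47 CPM without ARID1A, 1.59 and 1.65 with WT and 6.83 and 5.77 with ΔIDR1b under the empty vector. With EWS-FLI1 it had 2.78 and 1.37, 2.09 and 2.20, and 7.30 and 6.49. Groups without ARID1A and with WT overlapped under both vectors, and the ratio of ΔIDR1b to no ARID1A was 3.68 and 3.33. CENPBD1P, related to genes with a CENP-B type DNA-binding domain (chr16:89969791-89972534, minus strand, 1 exon), was at 3.03 and 2.20, 2.56 and 2.80, and 9.31 and 7.36 CPM in the same order, and at 3.87 and 2.14, 2.96 and 3.81, and 15 and 10.6 with EWS-FLI1. Of the higher genes it was the one nearest to the ΔIDR1b limit, with a difference of 1.502 under the empty vector. FAM86EP (chr4:3941760-3955432, minus strand, 7 exons) was at 1.59 and 1.54, 1.18 and 2.08, and 5.43 and 6.76 CPM, and with EWS-FLI1 at 2.53 and 1.71, 2.09 and 2.35, and 8.59 and 5.61. It belongs to a family of near-identical copies, so its level is uncertain where reads could not be placed on 1 copy.

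The single gene that was lower, ENSG00000287809, is an unnamed locus of 2 exons at chr16:21511635-21515131 (plus strand), overlapping the span of the pseudogene SMG1P3. Its CPM was 20.2 and 21.4 without ARID1A, 16.8 and 20.4 with WT and 4.34 and 4.93 with ΔIDR1b under the empty vector. With EWS-FLI1 it was 22.6 and 20.6, 16.9 and 19.8, and 3.19 and 3.35. Levels without ARID1A were 4.48 times those with ΔIDR1b under the empty vector and 6.60 times with EWS-FLI1, with no overlap. SMG1P3 was also lower with ΔIDR1b, by -1.02 and -1.16, and so was IGSF6, 124419 bases away, by -1.69 and -1.81, while WT gave -0.53 and -0.49 for SMG1P3 and -0.44 and -0.34 for IGSF6. SMG1P3 is a copy of part of SMG1, so counts of this locus are uncertain where copies are near-identical.

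**Figure D2:**
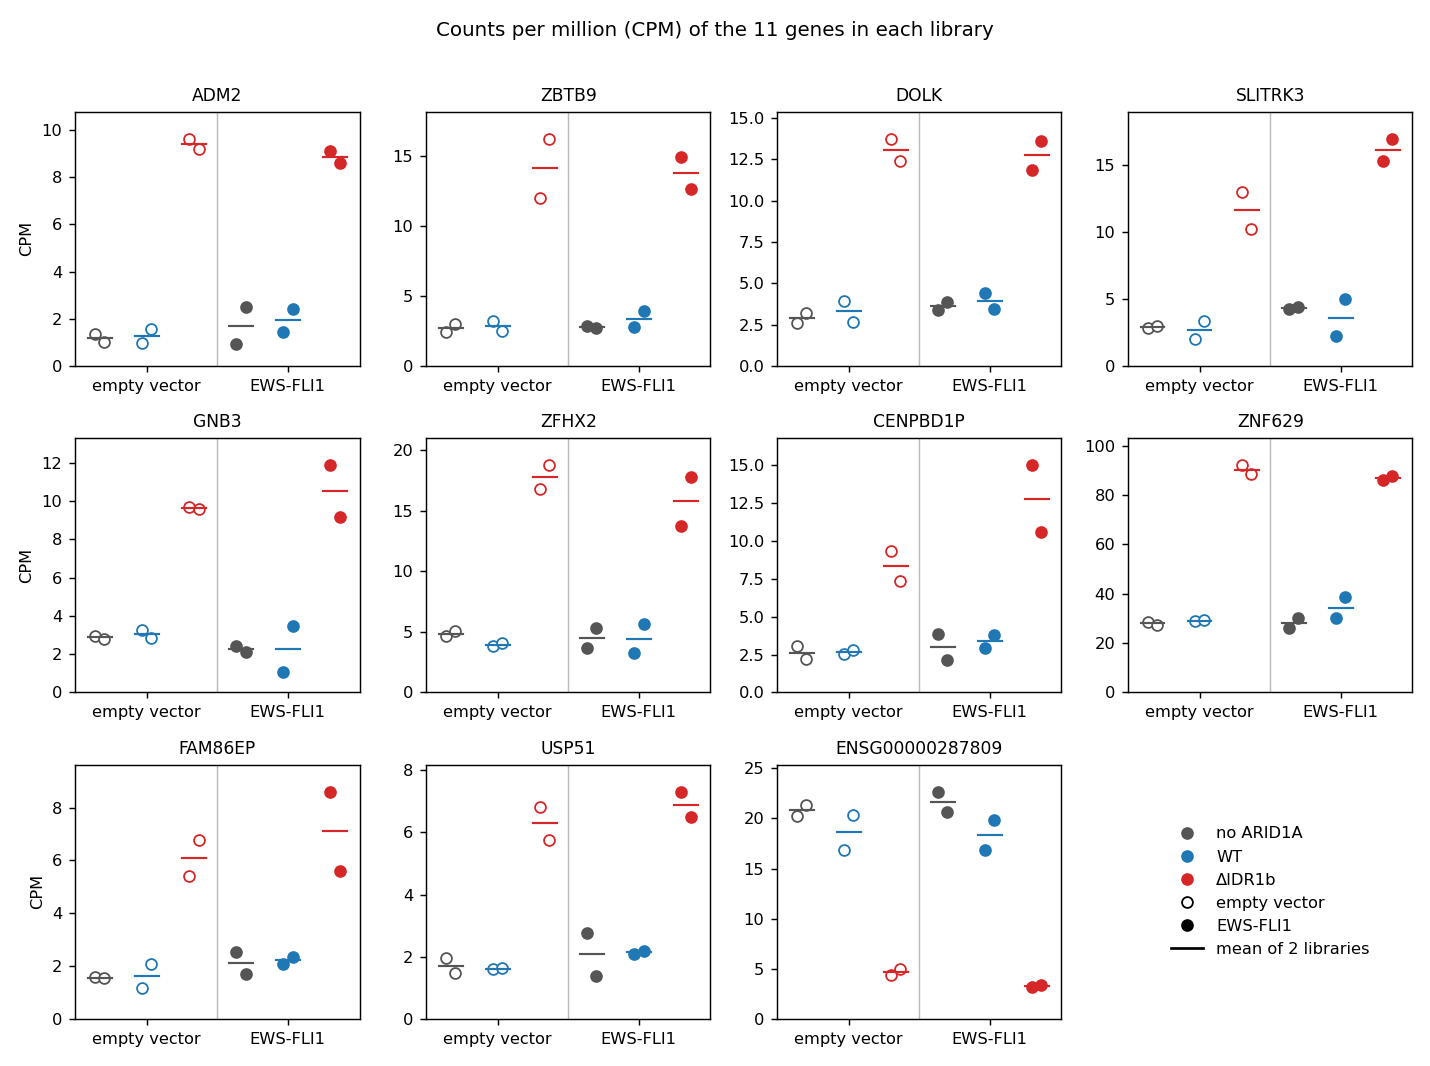
CPM (y axis, linear from 0, own scale per gene) of the 11 genes in the 12 libraries, grouped by vector on the x axis. Colours give the ARID1A state, open points the empty vector, filled points EWS-FLI1, and short lines the mean of 2 libraries. The 4 ΔIDR1b libraries (red) lie apart from the 8 others in every panel, above them for 10 genes and below them for ENSG00000287809.

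In all 11 genes the 4 ΔIDR1b libraries lay clear of the 8 others. This is a description, since the rule used the same libraries, and the same held for 22.3% of the 13491 genes on the higher side and 7.8% on the lower. WT libraries overlapped those without ARID1A for 9 of the 11 genes under each vector. The exceptions were ZFHX2 and ZNF629 with the empty vector, and ZNF629 and ENSG00000287809 with EWS-FLI1. The WT side of the rule was measured less finely than its limit of 0.3: the edgeR SE of the WT difference exceeded 0.3 in 14 of the 22 member and vector pairs, and ranged from 0.13 to 0.45. Its 95% intervals reached from -0.85 to 1.03 at their widest bounds. A shift of WT smaller than that of ΔIDR1b is thus not excluded by these counts for most members. On the same scale the ΔIDR1b differences of the higher genes ran from 1.52 (ZNF629, EWS-FLI1) to 2.84 (ADM2, empty vector), with an SE of at most 0.38.

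Genes close to the limits show how narrow the choice was. SCN4A, just outside, had ΔIDR1b differences of 1.53 and 1.48 (empty vector and EWS-FLI1), against 1.502 and 1.92 for CENPBD1P just inside. DDX28 fell outside with a WT difference of 0.31 with EWS-FLI1, whereas ZNF629 was inside at 0.28. LINC01359 had a mean of 2.23 CPM, below the level required, and FAM86EP was inside at 3.45. On the lower side ENSG00000266709 missed with -1.496 and -1.60, and USP3-AS1 missed with a WT difference of -0.32. TMM factors (trimmed mean of M-values) in place of library totals gave 8 genes, 5 higher and 3 lower, of which 6 were shared (54.5% of the 11 and 75% of the 8). The genes lost were CENPBD1P, FAM86EP, GNB3, USP51 and ZNF629, and upper-quartile factors lost the same 5. ADM2, ZBTB9, DOLK, SLITRK3, ZFHX2 and ENSG00000287809 met the rule under all 3 scalings.

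Most members had few exons, a feature that the rule did not use. Of the 11 genes, 8 had at most 4 exons after overlapping exons were merged, against 18.6% of the 13491 genes, and the median was 3 exons against 10. In 8 of them a single exon held 78.3% or more of the exonic length (DOLK and CENPBD1P, 100%), while in GNB3, ZFHX2 and FAM86EP the longest exon held 35.9% or less. A longest exon of at least 75% was found in 17.8% of the 13491 genes. The whole set of genes past the ΔIDR1b limit leaned the same way. Among genes with 2 to 3 exons, 2.89% were higher by the limit under both vectors and 4.73% were lower, against 0.344% and 0.0382% of genes with 21 exons or more. Genes with 1 exon were more often lower (8.12%) than higher (1.93%). In protein-coding genes with a longest exon of at least 75%, 3.01% were higher by the limit (50 of 1661), against 0.513% of the others (52 of 10134). On the lower side these shares were 0.662% and 0.365%. The feature was noticed after the members were known, and these shares carry no test.

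Counts over olfactory receptor genes, a class silent in most tissues and made largely of single-exon coding genes, moved with ΔIDR1b as well. Summed over 404 such genes they came to 9.19 to 9.62 CPM with ΔIDR1b under the empty vector and 7.36 to 8.06 with EWS-FLI1, and to between 2.49 and 5.57 in the 8 other libraries. Per gene and kilobase of exon this was at most 0.0143 CPM, against a lowest ΔIDR1b group mean of 1.36 CPM per kilobase among the 10 higher genes. Its part in their higher level was not tested, and this class was chosen after the data were seen. Summed markers of blood, endothelial and fibroblast cells also moved, from 90.9 to 117.6 CPM in the 8 libraries without ARID1A or with WT to 134.5 to 145.8 CPM with ΔIDR1b. COL1A1 and COL3A1 made up most of that sum. Of the 12 markers PTPRC had 3 counts and CD3E 2 counts in all 12 libraries together. Other markers of the list found in blood cells had more, 390 counts for CD34, 130 for CD14 and 30 for HBB.

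The 11 genes lie on 9 chromosomes, with 3 on chromosome 16 at distant positions. Of 122 genes of the same reach within 250 kb of them, 0 were higher by the ΔIDR1b limit, against 0.845% of the 13491 genes, and 2 were lower, against 1.34% (IER5L near DOLK and IGSF6 near ENSG00000287809), with a median difference of 0.014 under the empty vector and -0.10 with EWS-FLI1. Around ZNF629, 5 other zinc finger genes were in reach. ZNF689 differed by 1.66 and 1.17, ZNF764 by 1.29 and 0.91, ZNF747 by 1.18 and 1.11 and ZNF785 by 1.02 and 0.78 on the log2 CPM scale, while ZNF688 differed by -0.33 and 0.068.

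Relatives of the members were examined by edgeR across 20377 genes, with lists written after the members were known, and set beside the shares called over all genes. For ΔIDR1b against no ARID1A these shares were 16.4% higher and 16.8% lower under the empty vector, then 18.1% and 17.9% under EWS-FLI1. WT had 6.5% higher and 5.19% lower, then 9.72% and 8.36%. Of the other 10 tested copies of the FAM86 family, 4 were higher and 0 lower with ΔIDR1b under the empty vector, and 7 higher and 0 lower with EWS-FLI1, with median log2 differences of 0.56 and 0.81. With WT 0 of 10 were called in either direction, with medians of -0.39 and -0.19. FAM86HP had the clearest values, 1.16 ± 0.23 (SE, adjusted p = 0.000131) and 1.56 ± 0.24 (adjusted p = 3.27e-06) for ΔIDR1b. EEF2KMT, the protein-coding parent that methylates elongation factor 2, gave 0.56 ± 0.23 (adjusted p = 0.0572) and 1.19 ± 0.24 (adjusted p = 0.00017). These copies share sequence with FAM86EP and are not independent of it.

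Gene names that begin with ZNF, as that of ZNF629 does, were taken as a list by name alone, which also takes in antisense and divergent transcripts and pseudogenes of such genes. Of 409 tested, 173 were higher and 34 lower under the empty vector (median 0.38, against 0.0040 over all genes), and 168 higher and 41 lower with EWS-FLI1 (median 0.38 against 0.016). WT gave 38 higher and 26 lower, and 51 higher and 32 lower, with medians of 0.065 and 0.075. All 409 names on the list were tested, so it held no gene too low for the filter, as did the ZBTB list below. Calls were more common over all genes at higher levels. In a fit of the 13491 genes with a mean of at least 3 CPM, ΔIDR1b had 2985 higher and 2824 lower under the empty vector, then 3203 and 3012 with EWS-FLI1. WT had 1130 and 1101 there, then 1710 and 1661. Of gene names that begin with ZBTB (among them ZBTB8OS, which is no BTB zinc finger gene), 19 of 40 were higher and 5 lower with ΔIDR1b under the empty vector, then 17 and 3 with EWS-FLI1. WT gave 7 higher and 4 lower, then 8 and 3. Upper-quartile factors or plain library totals kept the ΔIDR1b medians of the ZNF and ZBTB lists positive. Among genes with a CENP-B type domain, 5 of 10 were higher and 1 lower with ΔIDR1b, then 4 and 1. WT gave 2 and 2, then 2 and 1. CENPB, the centromere protein that names the domain, rose by 1.39 ± 0.14 (adjusted p = 1.26e-09) and 1.21 ± 0.14 (adjusted p = 1.98e-08), while WT gave -0.15 ± 0.14 (adjusted p = 0.562) and -0.02 ± 0.14 (adjusted p = 0.954).

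Calls among other relatives went in both directions. They stand beside shares over all genes with ΔIDR1b of 16.4% higher and 16.8% lower, then 18.1% and 17.9% with EWS-FLI1. Of 6 tested genes for calcitonin family peptides and their receptors, 0 were higher and 2 lower with ΔIDR1b under the empty vector, then 1 and 1 with EWS-FLI1. ADM, the adrenomedullin gene beside which ADM2 is named, fell with ΔIDR1b, at -2.57 ± 0.15 (adjusted p = 7.22e-15) and -3.05 ± 0.16 (adjusted p = 1.56e-16), and with WT, at -1.36 ± 0.15 (adjusted p = 4.93e-08) and -1.81 ± 0.15 (adjusted p = 7.71e-11). ADM5 gave 0.41 ± 0.74 (adjusted p = 0.716) under the empty vector and rose by 2.03 ± 0.79 (adjusted p = 0.0412) with EWS-FLI1. ZFHX3, a paralogue of ZFHX2, rose by 0.61 ± 0.15 (adjusted p = 0.00206) under the empty vector and gave 0.38 ± 0.15 (adjusted p = 0.0504) with EWS-FLI1. GNG5, a γ subunit that pairs with β subunits, fell with ΔIDR1b, at -2.66 ± 0.15 (adjusted p = 2.52e-15) and -2.73 ± 0.15 (adjusted p = 1.63e-15), and GNB1, the common β subunit, had -0.11 ± 0.09 (adjusted p = 0.386) and -0.05 ± 0.09 (adjusted p = 0.685). Of 14 tested genes for β and γ subunits, 1 was higher and 2 lower with ΔIDR1b, then 2 and 2. With WT 0 were higher and 1, GNG5, was lower under each vector. Of 23 genes that make or use dolichol phosphate, 6 were higher and 4 lower, then 4 and 3. DHDDS, which takes part in building the dolichol chain ahead of DOLK, rose by 0.76 ± 0.20 (adjusted p = 0.00323) and 0.76 ± 0.20 (adjusted p = 0.00266), and DPM1, which uses dolichol phosphate, fell, at -0.62 ± 0.13 (adjusted p = 0.000242) and -0.72 ± 0.13 (adjusted p = 3.07e-05). Of 8 genes tested around the histone H2B deubiquitinase module of SAGA, 3 were higher and 2 lower with ΔIDR1b, then 4 and 3. WT gave 2 higher and 2 lower under each vector, with ENY2 among those called. The paralogue of USP51 named USP27X rose by 0.78 ± 0.26 (adjusted p = 0.0217) and 0.90 ± 0.26 (adjusted p = 0.00596), whereas ENY2, a cofactor of the same deubiquitinase module, fell, at -1.67 ± 0.14 (adjusted p = 1.46e-11) and -1.92 ± 0.14 (adjusted p = 4.66e-13).

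None of the 11 genes was in the lists of SWI/SNF subunits, kidney development regulators, neuronal genes, epithelial and mesenchymal genes, axon guidance genes, interferon-stimulated genes or p53 targets. By symbol, 1 of them (ZNF629) was among the names that begin with ZNF, ZFP or ZSCAN and a digit. These names made up 3.25% of the 13491. An unnamed Ensembl identifier was held by 1 member, against 3.96%. Of 30 SWI/SNF subunits tested, 4 were higher and 5 lower with ΔIDR1b under the empty vector, then 4 and 10 with EWS-FLI1, and ARID1A itself is one of the higher ones. With plain library totals the counts with EWS-FLI1 were 6 higher and 3 lower, so the balance of this list depended on the scaling. With WT the counts were 4 and 1, then 5 and 3. Of 21 interferon-stimulated genes, 13 were higher and 3 lower with ΔIDR1b under the empty vector, then 12 and 2 with EWS-FLI1, and WT had 12 and 0, then 10 and 1. Of 18 p53 targets, ΔIDR1b had 7 higher and 2 lower, then 9 and 1, and WT had 7 and 0, then 8 and 2. Kidney regulators (17 tested) gave 4 higher and 6 lower, then 4 and 4, with ΔIDR1b. WT had 0 and 1, then 1 and 2. Neuronal genes (11 tested) gave 3 and 1 under both vectors, and WT had 2 and 0, then 1 and 0. Epithelial and mesenchymal genes (16 tested) gave 3 and 4, then 4 and 4, and WT 3 and 2, then 4 and 3. Axon guidance genes (29 tested) gave 7 and 2, then 10 and 3, and WT 3 and 1, then 6 and 2. Over all genes, ΔIDR1b had 16.4% higher and 16.8% lower, then 18.1% and 17.9%. WT had 6.5% and 5.19%, then 9.72% and 8.36%.

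The effect of EWS-FLI1 was the 1 contrast that the rule did not use, and none of the 11 genes passed its test. By edgeR with Benjamini-Hochberg adjustment over 20377 genes, 0 of 11 were called for EWS-FLI1 against the empty vector averaged over the 3 states, where 0.466% of all genes were called. The count was also 0 without ARID1A (0.0442% of all genes), with WT (0.221%) and with ΔIDR1b (0.172%). With shares this low over all genes, a count of 0 among 11 lies near the background and does not set the members apart. At an unadjusted p under 0.05 there were 2 in the average (SLITRK3 and CENPBD1P, with 7.9% of all genes), 0 without ARID1A (3.16%), 0 with WT (6.53%) and 2 with ΔIDR1b (ENSG00000287809 and CENPBD1P, with 5.45%). DESeq2 called 0 in each of the 4, and had 1 of 11 at an unadjusted p under 0.05 in the average (1360 of all 20377 genes) and 0 in each of the 3 states (485, 1094 and 904 of all genes). The members' median log2 fold change was 0.16 in the average, 0.18 without ARID1A, 0.22 with WT and -0.03 with ΔIDR1b, against -0.0020, -0.0025, -0.0044 and 0.0032 over all genes.

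SLITRK3 had the largest average change with EWS-FLI1, 0.48 ± 0.17 (SE, adjusted p = 0.362), and its EWS-FLI1 libraries were clear above the empty-vector libraries without ARID1A and with ΔIDR1b. With WT the libraries overlapped, since repeat 1 with EWS-FLI1 stood at 2.23 CPM. Without that library SLITRK3 passed, at 0.63 ± 0.16 (adjusted p = 0.0447), and without repeat 2 of the same group it was at 0.25 ± 0.18 (adjusted p = 0.567). CENPBD1P changed by 0.37 ± 0.18 on average (adjusted p = 0.625) and by 0.61 ± 0.27 with ΔIDR1b (adjusted p = 0.861). ENSG00000287809 gave -0.50 ± 0.24 with ΔIDR1b (adjusted p = 0.906), with both EWS-FLI1 libraries below both empty-vector libraries, and 0.04 ± 0.17 without ARID1A. ADM2, the member with the largest difference, gave 0.48 ± 0.44 without ARID1A, 0.57 ± 0.42 with WT and -0.09 ± 0.31 with ΔIDR1b, values smaller than 2 SE in each state.

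**Figure D3:**
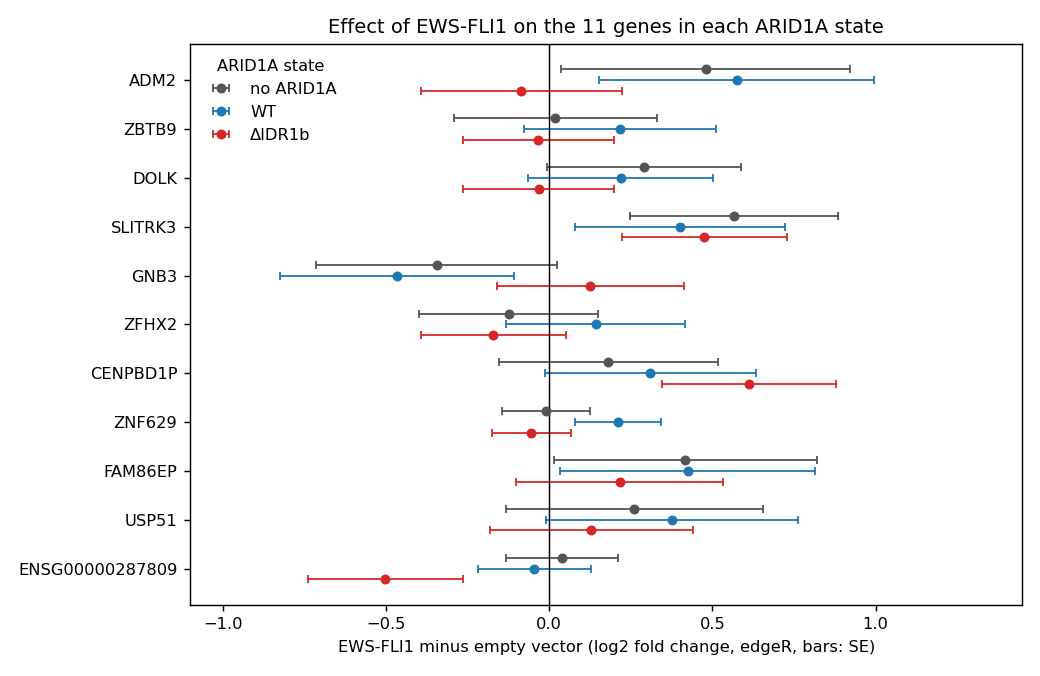
Log2 fold change of EWS-FLI1 against the empty vector (x axis, points, with SE as bars; edgeR on all 12 libraries) for the 11 genes (y axis) in each ARID1A state. Estimates run from -0.50 for ENSG00000287809 to 0.61 for CENPBD1P, both with ΔIDR1b, and none passed at an adjusted p under 0.05.

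By state, EWS-FLI1 libraries lay clear above the empty-vector libraries for 3 of 11 genes without ARID1A (18.6% of the 13491 genes did so), for 4 with WT (16.6%) and for 2 with ΔIDR1b (18%). They lay clear below for 1 (16.4%), 0 (11.2%) and 3 (18.5%). With so few genes these counts lie near the background. The rule required the ΔIDR1b change under both vectors and bounded the WT change under both, so how alike these changes were with and without EWS-FLI1 is no finding.

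The WT libraries with EWS-FLI1 differed more from each other than other repeats did, with a chi-square of 12.1 per degree of freedom over genes against 3.02 to 6.13 in the 5 other groups. Repeat 2 was higher than repeat 1 for 10 of the 11 genes there, against 51.9% of all genes. WT means with EWS-FLI1, such as 3.61 ± 1.95 CPM for SLITRK3 and 2.26 ± 1.67 CPM for GNB3 (SD, n = 2), carry that spread.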

How the data were processed

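Per the file headers, the authors counted fragments per gene (featureCounts 2.0.1, exons joined by gene name, annotation GENCODE 41, build GRCh38), with both ends aligned and no strand option. The submitters' processing notes also name STAR, SAMtools and edgeR, and STAR's version is not given in the sources used here. The deposited values are raw counts, 1 table per library.

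CPM were computed from library totals (Python 3.11.15, pandas 2.3.3). Tests used edgeR 4.0.16 (R 4.3.3, limma 3.58.1) on the counts as deposited: filterByExpr (minimum count 10, minimum total 15), which kept 20377 genes, TMM factors, 1 mean per group over 12 libraries, a quasi-likelihood F-test and Benjamini-Hochberg adjustment, called under 0.05. An SE is the log2 fold change divided by the square root of F. DESeq2 1.42.0 and other scalings, filters and blocks were alternatives, as was leaving out each library. The procedure was run on simulated counts with EWS-FLI1 changes but no ARID1A state or repeat effects, a simpler setting than these data. The members and gene lists were chosen with earlier results of these data known. Values per library are given for all members (the rule named the 12 highest and 12 lowest), differences or means for genes just inside and outside the limits, and group means for ARID1A, FLI1 and EWSR1 as a check of the labels.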

Additional observations from a re-analysis of the deposited data

Results flagged for a closer look

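ZNF629 was flagged because its EWS-FLI1 libraries lay on opposite sides of the empty-vector libraries in 2 states. Both EWS-FLI1 libraries lay above both empty-vector libraries with WT, a difference of 0.24 in log2 group mean CPM, and both lay below them with ΔIDR1b, a difference of -0.054. Neither difference passed edgeR's test with Benjamini-Hochberg adjustment, which gave 0.21 ± 0.13 (SE, adjusted p = 0.842) with WT and -0.05 ± 0.12 (adjusted p = 0.997) with ΔIDR1b. Whether the 2 differ from each other was not tested. EWS-FLI1 repeat 2 with WT, at 38.6 CPM, was the highest of the 8 libraries without ΔIDR1b.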

How the results depend on the processing

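The number of members, 11, became 2 with a mean of at least 10 CPM, 113 and 3 with a ΔIDR1b limit of 1 and 2, 6 and 32 with a WT limit of 0.2 and 0.5, and 8 to 14 when each library was left out. No member was kept in all 12 of those. The count of members called for EWS-FLI1 stayed at 0 in every alternative, except 1 (SLITRK3) in the average without repeat 1 of WT with EWS-FLI1. The average effect turned sign for ZBTB9 (-0.018 to 0.15 leaving out 1 library) and ZNF629 (-0.010 to 0.10) without repeat 2 of WT with EWS-FLI1, and for ZFHX2 (-0.20 to 0.063) without repeat 1 of no ARID1A (0.028), WT (0.063) or ΔIDR1b (0.012) with EWS-FLI1. The cause was not tested.

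Over all genes, EWS-FLI1 called 95 genes in the average (61 to 289 leaving out 1 library), 9 without ARID1A (5 to 13), 45 with WT (23 to 199) and 35 with ΔIDR1b (22 to 70). With no filter those without ARID1A and with WT became 16 and 75, and with only the groups compared the last 3 became 16, 26 and 56. ΔIDR1b against no ARID1A called 6778 with the empty vector (4504 to 7765) and 7321 with EWS-FLI1 (5079 to 8274). WT against no ARID1A called 2381 (786 to 3565) and 3684 (1815 to 3822), the latter 2202 with only the groups compared. Library totals moved the share of higher calls for ΔIDR1b from 49.4% to 64.1% with the empty vector and from 50.3% to 61.5% with EWS-FLI1, and for WT from 55.6% to 43.5%. Upper-quartile factors moved it for WT to 39.4% and, with EWS-FLI1, from 53.8% to 42.2%.

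Deviations of same-numbered libraries correlated between groups of a vector at 0.0889 to 0.381, positive in all 6 pairs (the 3 with EWS-FLI1 from 0.137 up). Between vectors they correlated at -0.205 to -0.0046 (9 pairs). Libraries of equal number within a vector thus deviated alike to a degree. The main fit used no pairing, and a replicate block within each vector was an alternative. That block gave 232, 17, 119 and 109 calls for EWS-FLI1, against 95, 9, 45 and 35 in the main fit. It gave 3606 for WT with the empty vector and 4849 for WT with EWS-FLI1, and changed no EWS-FLI1 call of a member. The rule bounded WT against no ARID1A at the members, so a count of members called there is a description and no test. With EWS-FLI1 that contrast called 0 members in the main fit, against 9.72% of all genes higher and 8.36% lower. Under the block within each vector it called 1 (ZNF629).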
